A study of Mus musculus with 4 samples.

Results

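The 10 genes described here encode proteins that glands secrete into saliva. They were picked from a table of 33793 transcript clusters because their signal was high on 1 of 4 brain arrays, the first of the 2 Adar2 knockout arrays, and each of the 10 gene symbols had 1 cluster. Each cluster combines the probes that target 1 transcribed locus. The members were thus chosen by the same signals that are given below, so these signals are a description and carry no test.

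Total RNA of whole brain from adult female mice of the strain 129SV was measured on Affymetrix whole-transcript gene arrays, in 2 wild-type and 2 Adar2 knockout samples. Adar2, also named Adarb1, encodes an editing enzyme that deaminates adenosines of double-stranded RNA to inosines. Per the study's methods, both genotypes came from intercrosses of heterozygous animals and carried a Gria2 allele fixed in its edited form, so wild type here means wild type at Adar2 only. The design compares transcript levels in brain with and without ADAR2. All signals are log2 values as the authors normalized them, so a difference of 1 is a 2-fold difference. The labels do not say whether the samples of a genotype came from separate animals, and the study's methods, which read as 1 mouse for each array, do not say so outright.

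Saliva is made by acinar cells, which release proteins and fluid, and is modified on its way through ducts. The major salivary glands of the mouse are the parotid, the submandibular and the sublingual gland, and they differ in what they secrete. Lacrimal glands, which make tears, share several of these products.

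Adarb1 was lower on both knockout arrays, at 9.16 and 8.96, than on the wild-type arrays, at 10.50 and 10.45, as the labels state. Median signals were 6.03 and 6.06 in wild type and 6.09 and 6.08 in the knockout, and Pearson's r across clusters was 0.993 to 0.995 for every pair of arrays. The brain origin was visible in 11 clusters of neuronal, astrocytic and oligodendrocytic genes, whose signals lay between 8.68 and 13.16. Adar2 knockout replicate 1 nevertheless stood apart from the other 3. On this array 28 clusters were at least 1 log2 unit above the highest of the other arrays, against 5 and 3 clusters on wild-type replicates 1 and 2 and 7 on Adar2 knockout replicate 2. In the other direction, 21 clusters were at least 1 unit below all other arrays on it, against 4 and 3 in wild type and 9 on Adar2 knockout replicate 2. The 28 clusters with a higher signal comprised the 10 salivary secretory genes, 10 clusters of the immunoglobulin heavy chain and kappa loci, and 8 others.

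**Figure D1:**
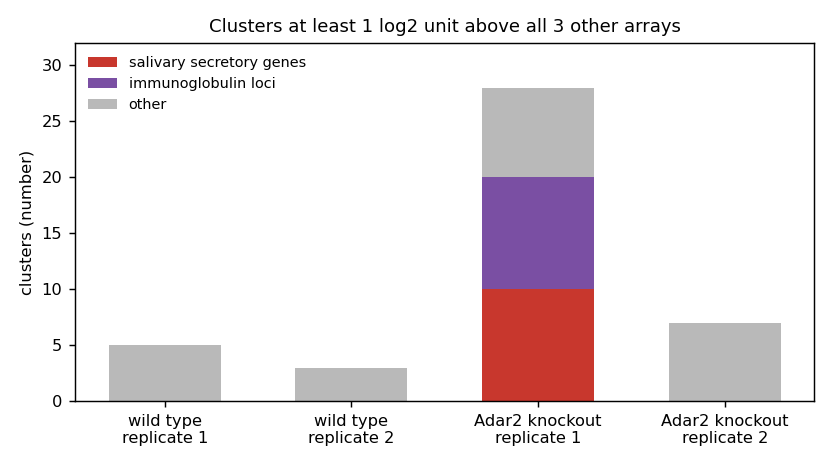
Number of transcript clusters whose log2 signal on 1 array was at least 1 unit above the highest of the other 3 arrays, for each of the 4 arrays. Adar2 knockout replicate 1 has 28 such clusters, among them all 10 salivary secretory genes (red) and 10 clusters of immunoglobulin loci (purple), which the other arrays do not show.

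The file names no genome build, but all 10 clusters overlapped the RefSeq span of their gene in GRCm38.p6. They lie on 8 chromosomes, and only chromosomes 2 and 17 hold a pair of them. The clusters have 8 to 26 probes, and that of Dcpp1 is the 1 member marked as having probes that can cross-hybridize to other transcripts.

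Promoters of the members are given as a description, because a high signal on the same array is what chose the genes. RefSeq promoters of GRCm38.p6 were found for all 10 genes, 11 in all since Amy1 has a pair of annotated starts. For Dcpp1 and Smr3a the promoter lies inside the RefSeq span of the gene, which begins at 23880669 and 87991555. No window before these bases was searched. The letters TATAA, read on the gene's own strand, were searched in the 30 bases from 45 to 16 bases before the annotated start, where a TATA box would be placed. They occurred in 4 of the 11 windows, and in 3.89% of 32851 such windows over all genes. These shares were not tested against each other. The 4 windows with the motif are shown 5′ to 3′ so that its place can be compared, with the motif in capitals, and the other 6 genes have no match in this window. They belong to Bpifa2 (chr2:154008231-154008260, plus strand), Pip (chr6:41847504-41847533, plus strand), Dcpp1 (chr17:23880831-23880860, plus strand) and Crisp1 (chr17:40319223-40319252, minus strand).
Bpifa2: cacaaTATAAgtcaccctagaatcccagga
Pip: tgcttctgtgaactgtaTATAAaacctgcg
Dcpp1: ccaagaggccccagaagcaTATAAggggag
Crisp1: ggaactatgcagagTATAAatagacagctg
The motif began 40, 28, 26 and 31 bases before the start of Bpifa2, Pip, Dcpp1 and Crisp1. A match of letters is not a site that was shown to be used.

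The first of the members by difference was Bpifa2 (transcript cluster 17378104, chromosome 2, 154008265 to 154016277, plus strand). It encodes parotid secretory protein, a lipid-binding member of the BPI fold family that is abundant in saliva. The log2 signal of Bpifa2 was 5.13 and 5.09 in wild type, 12.61 in Adar2 knockout replicate 1 and 5.28 in replicate 2. Replicate 1 thus lay 7.44 above the mean of the other arrays, which is 174-fold, while these spanned 0.19. No other of the 33793 clusters was as far above the other arrays on this array.

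The remaining members are given by their roles, beginning with a protease inhibitor and a protease of saliva. Cst10 (cluster 17377425, chromosome 2, 149405057 to 149410293, plus strand) encodes a cystatin, an inhibitor of cysteine proteases. Its signal was 3.71 and 3.48 in wild type, 9.82 in Adar2 knockout replicate 1 and 4.01 in replicate 2, a difference of 6.09 from the mean of the other arrays. Klk1 (cluster 17477391, chromosome 7, 44225437 to 44229617, plus strand) encodes tissue kallikrein, a serine protease that releases kinins. It was at 3.89 and 4.14 in wild type, 6.57 in Adar2 knockout replicate 1 and 4.21 in replicate 2, so the difference was 2.49. For both genes the high value was that of a single array, and the other knockout array lay within 0.53 of each wild-type array.

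Among the secreted enzymes, Car6 (cluster 17433265, chromosome 4, 150187015 to 150201332, minus strand) encodes the carbonic anhydrase that is released into saliva and buffers it. The signal of Car6 was 4.64 and 4.53 in wild type, 8.20 in Adar2 knockout replicate 1 and 4.72 in replicate 2. Amy1 (cluster 17409575, chromosome 3, 113555710 to 113606699, minus strand) encodes salivary amylase, which splits starch. Here the wild-type arrays read 5.25 and 5.22, Adar2 knockout replicate 1 read 7.70 and replicate 2 read 5.60. The first array was 3.57 above the mean of the other arrays for Car6 and 2.34 for Amy1, or 11.9-fold and 5.07-fold. The difference of Amy1 was the smallest of the 10.

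Pip and Crisp1 encode small secreted proteins. Pip (cluster 17457836, chromosome 6, 41847549 to 41852062, plus strand), the prolactin induced protein of saliva, tears and other secretions, had signals of 3.94 and 4.18 in wild type, 9.45 in Adar2 knockout replicate 1 and 4.33 in replicate 2. Crisp1 (cluster 17344953, chromosome 17, 40293758 to 40319207, minus strand), a cysteine-rich secretory protein best known from the epididymis and also made in salivary gland, had signals of 4.70 and 4.85, 7.56 and 5.06 in the same order. Their differences from the mean of the other arrays were 5.30 and 2.69, and the high array was the same.

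The last 3 genes carry salivary glands in their names or were described from cDNA. Smr3a (cluster 17438721, chromosome 5, 88002525 to 88008534, plus strand) is the submaxillary gland androgen regulated protein 3A, and its signal was 4.12 and 3.90 in wild type, 8.47 in Adar2 knockout replicate 1 and 3.65 in replicate 2. Dcpp1 (cluster 17334166, chromosome 17, 23880876 to 23882853, plus strand), the demilune cell and parotid protein 1, read 5.98 and 5.94, then 10.20 and 5.93. 2310057J18Rik (cluster 17239991, chromosome 10, 28972288 to 28986306, minus strand), for which RefSeq also lists the name Leg1, read 3.46 and 3.43, then 8.22 and 3.63. The 3 genes differed by 4.58, 4.25 and 4.71 from the mean of the other arrays. Outside Adar2 knockout replicate 1, the arrays spanned 0.05 for Dcpp1, the narrowest span among the members, and 0.47 for Smr3a.

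**Figure D2:**
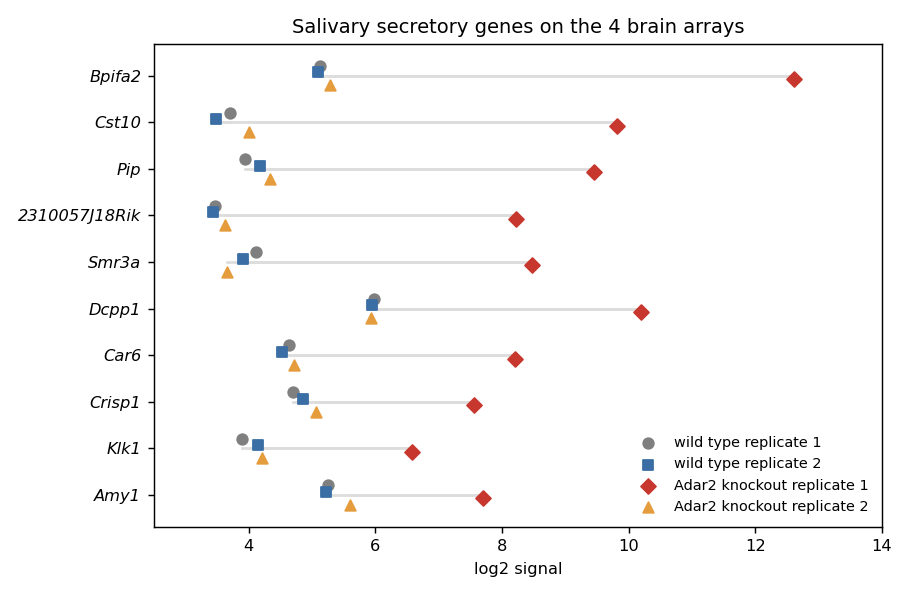
Log2 signal (horizontal axis) of each of the 10 salivary secretory genes on each of the 4 arrays, 1 point per array, with genes ordered by the distance of Adar2 knockout replicate 1 (red) from the highest other array. The red points lie between 6.57 and 12.61, and all points of the other 3 arrays lie between 3.43 and 5.98.

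Over the 10 genes, Adar2 knockout replicate 1 was a median of 4.41 log2 units above the mean of the other arrays, with a range of 2.34 to 7.44. The same median over all clusters was 0.01. For each member the distance from the highest other array was at least 5.53 times the span of the other 3 arrays. All 10 were at least 1 unit above that array, and 0.0829% of all clusters were. All 10 were also at least 2 units above it, as were 0.0503% of all clusters. Since this distance chose the members, nothing is read from that count. The wild-type arrays differed by a median of 0.13 for the members, which equals the median of 0.13 over all clusters.

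No detection calls came with the signals. Genes of the Y chromosome are absent from females, and their 6 clusters read from 3.49 to 5.43, which shows what a cluster can read without its transcript. Outside Adar2 knockout replicate 1 the members read 3.43 to 5.98. Background differs from cluster to cluster, so whether the members were detected on those 3 arrays is not known, and a fold over a value at background understates the true ratio.

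The second knockout array did not share the high signals. Relative to the wild-type mean, Adar2 knockout replicate 2 was between -0.36 for Smr3a and 0.42 for Cst10, with a median of 0.19 over the members and of 0.00 over all clusters. It lay above both wild-type arrays for 8 of the 10 genes, all but Smr3a and Dcpp1, and did so for 33.7% of all clusters. These values bear on a choice that asked for a high signal on the other knockout array only, and were not tested.

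As a comparison of genotypes, the members had a median difference of 2.08 between the means of knockout and wild type. The knockout SD ranged from 1.48 to 5.18 (n = 2), and the wild-type SD from 0.021 to 0.18 (n = 2). Bpifa2, for example, was at 5.11 ± 0.028 in wild type and 8.95 ± 5.18 in the knockout. In limma 0 of the 10 passed an unadjusted p of 0.05, which 5.95% of all clusters did, 3.64% with the higher level in the knockout. The choice of genes high on 1 of 2 knockout arrays brings a wide knockout SD. The count of 0 members thus follows from the choice and is no test. Of all 33793 clusters 0 passed an adjusted p of 0.05. Without Adar2 knockout replicate 1 the median difference was 0.19, and without replicate 2 it was 4.35. Whether the high signals belong to the genotype or to a single sample cannot be told apart with 1 high array of 2.

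Genes with a like pattern were ranked by the distance of Adar2 knockout replicate 1 from the highest other array, over 4 arrays. The members took 7 of the first 8 places and the last of them, Amy1, came 16th at 2.10. The non-members among these places were Chia, Dnase1, Gm5154, Abpb and a pair of immunoglobulin clusters without a symbol. Chia, acidic chitinase, which RefSeq names Chia1, read 6.25 and 6.21 in wild type, 10.53 in Adar2 knockout replicate 1 and 5.73 in replicate 2. Dnase1, a secreted nuclease that digests DNA, read 5.49 and 5.99, 8.34 and 6.02. Both are enzymes that glands and gut release, and on both the first knockout array alone was high.

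Abpb, androgen binding protein beta, is a secretoglobin of saliva and tears that RefSeq names Scgb2b27. It read 3.45 and 3.07 in wild type, 5.58 in Adar2 knockout replicate 1 and 3.23 in replicate 2. Gm5154, a predicted gene on chromosome 6, read 3.99 and 3.85, 6.44 and 4.21. The distance from the highest other array was 2.13 for Abpb and 2.23 for Gm5154. Just below Amy1 came Ighg, an immunoglobulin gamma chain, at 2.07.

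**Figure D3:**
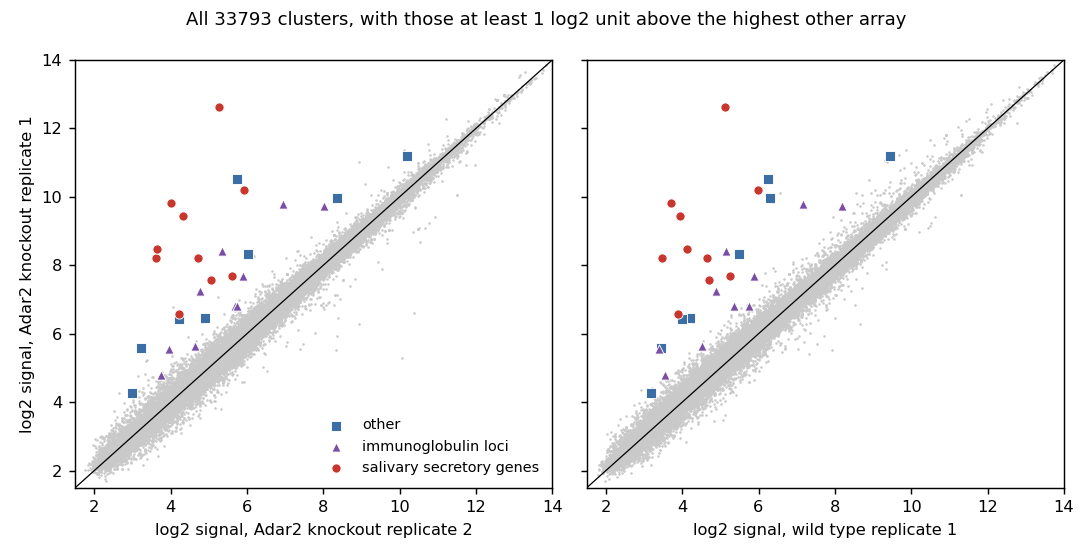
Log2 signal of all transcript clusters on Adar2 knockout replicate 1 (vertical axis) against Adar2 knockout replicate 2 (left) and wild-type replicate 1 (right), with the line of equal signal. Clusters at least 1 log2 unit above the highest other array are coloured, with the 10 salivary secretory genes in red at 6.57 to 12.61 on the vertical axis and clusters of immunoglobulin loci in purple.

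The 10 immunoglobulin clusters among those 28 were 1.01 to 3.06 above the highest other array. The loci were taken to hold 129 clusters on chromosome 12 and 116 on chromosome 6, and all but these 10 stayed below 1 unit. Over all clusters 0.0829% reached it. Ighg read 4.88 and 5.19 in wild type, 7.26 in Adar2 knockout replicate 1 and 4.78 in replicate 2, and Ighm read 8.19 and 7.94, 9.72 and 8.01. Outside these loci, the remaining clusters with a distance of at least 1 were Gh, Mir3096b, Gbp8 and Taf1d, at distances of 1.59, 1.58, 1.09 and 1 log2 unit. Growth hormone, Gh, read 6.30 and 5.68 in wild type, 9.95 in Adar2 knockout replicate 1 and 8.36 in replicate 2. Its second knockout array was 2.37 above the wild-type mean, where the members were at most 0.42 above it. The next symbols in the ranking, Olfr782, Hist1h4i, Amy2a5 with 3 clusters, Ggh, Olfr607 and LOC100862279, were between 0.81 and 0.95.

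Other genes of the same glands were then examined by lists. Members of these lists that are named below 1 log2 unit were chosen after their values were seen. Of 19 clusters of further secreted products of acinar and mucous cells, 1 was at least 1 log2 unit above the highest other array, that of Dnase1. This list does not hold Abpb, which is counted with lacrimal gland below though it is also a product of saliva. Nor does it hold Gm5154, for which salivary gland is the 1 tissue listed in the annotation. The mucins Muc19 and Muc5b, the peroxidase Lpo and the water channel Aqp5 were between 0.29 below and 0.13 above it. Prpmp5, a proline-rich salivary protein, was next to Dnase1 at 0.72. The median of the list was -0.10, against -0.11 over all clusters.

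Products of the granular ducts showed no such cluster among 17. Egf, the epidermal growth factor that mouse submandibular gland stores in large amounts, had a pair of clusters, and the one with the larger distance read 5.13 and 5.08 in wild type, 5.42 in Adar2 knockout replicate 1 and 5.08 in replicate 2. Ren1, which encodes renin, was 0.14 above the highest other array. The list's median was -0.08 and its summed linear signal was 527 and 538 in wild type, and 539.1 and 539.8 in the knockout.

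Epithelial and secretory cell genes that are not secreted themselves showed no such cluster either. None of 25 clusters, for keratins, claudins, Epcam, Cdh1, the acinar transcription factor Bhlha15 and others, reached 1 unit, and the largest distance was 0.31 for Cldn3. The summed linear signal of this list was 2647 and 2765 in wild type, and 2793 and 2789 in the knockout. For the 10 members the corresponding sums were 259 and 257 in wild type, and 10469.6 and 288 in Adar2 knockout replicates 1 and 2. Genes with a high signal on all 4 arrays, Slc12a2 at 9.74 to 10.03 and Chrm3 at 8.98 to 9.21, weigh most in the epithelial sum, and the members' sum rests on the values that chose them.

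Lists of neighbouring glands gave 1 cluster of 16 for lacrimal gland, that of Abpb, 0 of 14 for nasal gland and 0 of 27 for pancreatic enzymes. The list of antibody-secreting cells held 1 of 8, Ighm, and Igj, the joining chain of secreted antibodies, was 0.67 above the highest other array. The 3 other clusters named Ighm were between -0.09 and 0.27 from it, Pou2af1, Tnfrsf17 and 2010001M09Rik were at -0.19, -0.04 and 0.02, and the list's median was -0.01. Skeletal muscle had 0 of 19. Anterior pituitary had 1 of 10, Gh, and its summed linear signal was 474 and 369 in wild type, and 2455 and 1455 in the knockout. Gh and Prl, the prolactin gene, at 6.55 and 4.99, 10.11 and 9.66, weigh most in the knockout sums. Cga, with a pair of clusters, was 0.71 and 0.10 and Pomc 0.47 above the highest other array, and Tshb, Fshb, Lhb, Pou1f1 and Ghrhr were between -0.65 and 0.24 from it. Adar2 knockout replicate 1 was the highest array for 7 of the 10, and for 24.9% of all clusters. It was so for 17 of the 27 pancreatic clusters, and for 16.7% to 50% in the remaining lists apart from the members. The median of the pituitary list was 0.17. In bulk tissue, more cells of a type and more RNA per cell cannot be told apart, and the part of any other tissue in the signals of the salivary genes was not tested.

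**Figure D4:**
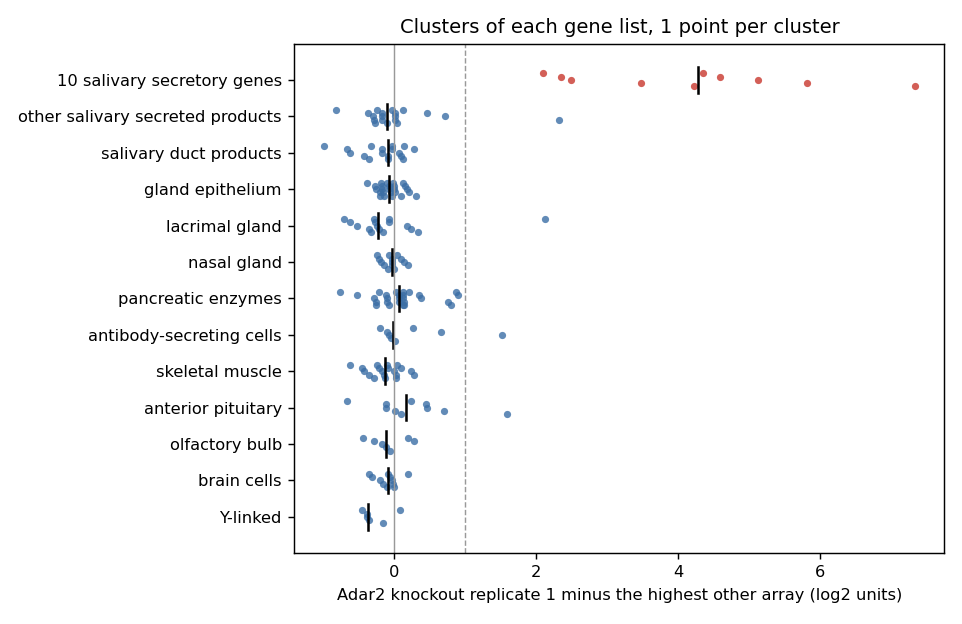
Difference in log2 signal between Adar2 knockout replicate 1 and the highest of the other 3 arrays (horizontal axis) for each cluster of 13 gene lists, with 1 point per cluster and a black bar at the median of each list. The dashed line marks 1 log2 unit, and the 10 salivary secretory genes (red) lie between 2.10 and 7.33 while the medians of the other lists lie between -0.35 and 0.17.

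Relatives of the members were chosen for description after the values had been seen. None of 14 clusters of the Klk1b kallikreins, close relatives of Klk1 in sequence, was over 0.13 above the highest other array. The same held at 0.10 for 13 clusters of other BPI fold genes, at 0.21 for 9 of other cystatins, at 0.15 for 3 of other Crisp genes and at 0.21 for 17 of other carbonic anhydrases. Dcpp2 read 3.63 and 3.67 in wild type, and 4.34 and 4.32 in the knockout, and Dcpp3 read 5.70 and 6.18, and 5.82 and 5.72. Thus neither followed Dcpp1, whose own cluster can cross-hybridize.

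Amylase clusters differed among themselves. All 8 clusters of Amy2a5, pancreatic amylase, are marked as able to cross-hybridize, and 4 of them, on the minus strand like Amy1, were 0.76 to 0.91 above the highest other array. The remaining 4, placed on the plus strand, shared all their values and were 0.13 above it. Amy2b, also on the minus strand and not marked so, read 3.30 and 2.66 in wild type, and 3.21 and 2.84 in the knockout, and was at -0.09. The other 18 pancreatic clusters that are not amylases had a median of -0.02 and a maximum of 0.39. The share of Amy1 transcripts in the signal of the Amy2a5 clusters was not tested.

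The deposited table also lists, from UniGene, the tissues in which each gene's transcripts had been sequenced. This column was named in the rule for the members, and is a description. Salivary gland was listed for 10 of the 10 genes and for 23.2% of the 23129 clusters with such a list. Skin was listed for 9 members and 53.7% of clusters, and tongue for 5 members and 15.2%. Eye, mammary gland and fetus were each listed for 7 members, and for 64.8%, 63.7% and 77.2% of clusters, and bone marrow for 6 members and 46.2%. Brain was listed for 2 members, Klk1 and Amy1, and for 69.9% of clusters. In the Gene Ontology column all 9 members with a cellular component carried an extracellular term, as 8.05% of annotated clusters did, and Klk1 had no entry.

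With the members left out, salivary gland without brain was listed for 365 clusters, and 4 of them, or 1.10%, were at least 1 unit above the highest other array. The 4 were Gm5154, Abpb and the pair named Igh-VJ558, which are immunoglobulin clusters. Over all 23119 clusters with such a list it was 10, or 0.0433%, and the shares were not tested. Among clusters listing both tissues it was 3 of 4997, Chia, Dnase1 and Ighm. Among those listing brain without salivary gland it was 2 of 11163, and among those listing neither 1 of 6594. The median distance from the highest other array was -0.09 for the 365 clusters and -0.11 over all clusters.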

How the data were processed

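RNA from whole brains (2 wild-type samples and 2 of the Adar2 knockout, grouped by their labels) was measured on 1-colour Affymetrix arrays. The authors deposited normalized log2 signals with 2 decimals for 33793 transcript clusters. Affymetrix Expression Console and RMA are named in the submitters' processing notes, with no version. Columns of the authors' own comparisons were not used. The number of arrays limits the precision.

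Member genes and lists were chosen with earlier results of these data known. Members were matched on the symbol column split at its separator, and other lists also through RefSeq accessions. Named non-members were the 20 clusters with a symbol and the largest distance of Adar2 knockout replicate 1 from the highest other array, and list clusters with a distance of at least 1. Genotypes were compared over all clusters by moderated linear models (R 4.3.3, limma 3.58.1, two-sided, Benjamini-Hochberg adjustment), without a filter. The fit was tested on simulated data. Counts, lists and promoters were handled in pandas 2.3.3 under Python 3.11.15. For a single cluster, 0.333 is the smallest two-sided p that exact permutation of 2 against 2 arrays allows.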

Additional observations from a re-analysis of the deposited data

How the results depend on the processing

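Of 56 recalculated values 48 stayed within the spread between arrays, or within 1.5 times for counts. For the members' median difference between genotypes that spread is set by Adar2 knockout replicate 1 itself, so its stability was not tested: the difference was 2.08 with all arrays, 0.19 without that array and 4.35 without Adar2 knockout replicate 2. The exceptions follow. A pooled-variance test without shrinkage gave 15 clusters past an adjusted p of 0.05, against 0 in limma. Restricting the table to clusters above the median mean signal left 2 of the members, both still at least 1 log2 unit above the highest other array, and moved the median excess of Adar2 knockout replicate 1 over the mean of the other arrays from 4.41 to 5.85. That median was 4.58 without clusters that can cross-hybridize, which drops Dcpp1, and 4.29 when taken from the highest other array. With single arrays left out, 0 to 10 members had an unadjusted limma p below 0.05. The 10 came without Adar2 knockout replicate 2 (4.86% of all clusters), where the knockout is the array that chose the members and the wild-type arrays alone give the spread, so this count follows from the choice and is no test. Without Adar2 knockout replicate 1 it was 1, Amy1, of 10 (5.33% of all clusters), with a lone knockout array assumed to vary like the wild type. The count of other salivary secretory clusters at least 1 unit above ranged from 1 to 2, and Prb1 was added without wild type replicate 1. Values that rest on Adar2 knockout replicate 1 could not be had without it. Deviations of same-numbered arrays correlated with r = 0.052. With 2 arrays per genotype this cannot show whether the numbers pair the samples. A fit blocked on the replicate number left 0 clusters past the adjusted threshold, 0 members and 1693 clusters of any gene past the unadjusted one, against 2009 without the block.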
